A study of Caenorhabditis elegans with 4 samples.

Results

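The lbp genes of Caenorhabditis elegans, lbp-1 to lbp-9, encode the worm's intracellular lipid binding proteins, the family to which the fatty acid binding proteins of vertebrates belong. All 9 were found by their deposited gene name among 19852 loci, and all 9 were among the 10655 genes compared, whose mean over the 4 libraries was 1 RPKM or more (a read density corrected for transcript length and for library size). Whole adult animals of the wild-type strain N2 were profiled by RNA sequencing, with 1 library per group and therefore no replicate error on any value. The groups were animals fed bacteria labelled as carrying elt-2 RNAi and kept in hypoxia (0.5% oxygen in nitrogen for 36 h, from day 1 of adulthood), animals on the same food in normoxia, animals on empty-vector control RNAi in hypoxia, and animals on control RNAi in normoxia. All groups shared the strain, an RNAi feeding medium and a growth temperature of 20 °C. The start at day 1 of adulthood and the 36 h of exposure were listed for the normoxia groups too. ELT-2 is a GATA transcription factor of the intestine, and feeding RNAi delivers double-stranded RNA through the food bacteria. The design asks how hypoxia changed transcript levels on each food, and how the RNAi food changed them at each oxygen level.

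Proteins of this family are small barrels that hold a fatty acid or another lipid in an inner cavity and carry it through the watery parts of the cell. In C. elegans, LBP-8 takes lipid signals made by the lysosomal lipase LIPL-4 in the intestine to the nucleus, where the nuclear hormone receptors NHR-49 and NHR-80 act. LBP-3 is a secreted carrier that takes a fatty acid signal from the intestine to neurons, LBP-5 has been tied to fat storage and to NHR-49, and LBP-1, LBP-2 and LBP-3 are predicted to enter the secretory pathway. RNA of whole animals mixes all tissues, so fewer cells of a type and less RNA per cell cannot be told apart.

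The targeted gene was not lower where the label names it. elt-2 was at 23.8 RPKM in hypoxia and 14.3 in normoxia on labelled elt-2 RNAi, and at 15.2 in hypoxia and 4.81 in normoxia on control RNAi. Every direction given below for RNAi therefore rests on the labels, and "on labelled elt-2 RNAi" stands for the libraries labelled elt-2 RNAi. Whether double-stranded RNA from the food adds to the elt-2 value was not tested. Summed over all loci, RPKM was 1084275 in hypoxia and 960654 in normoxia on labelled elt-2 RNAi, and 1127063 and 968738 on control RNAi. Both hypoxia sums were thus above both normoxia sums, and no ratio below was rescaled to them. Between 10462 and 11048 loci per library had at least 1 RPKM. Depth is unknown, since the values are RPKM with no counts, so no interval for counting error can be set on them.

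The genes lie on 3 chromosomes (build ce10). lbp-3 (X, 3256998 to 3258143), lbp-1 (X, 3259090 to 3259843) and lbp-2 (X, 3260598 to 3261461) stand in a row on the plus strand within 4464 bp, separated by 946 and 754 bp. lbp-6 (I, 6728288 to 6729377) and lbp-5 (I, 6731275 to 6732281) lie on the minus strand 1897 bp apart. lbp-7 (V, 13879542 to 13880100) and lbp-8 (V, 13890686 to 13891345) are on the plus strand 10585 bp apart. lbp-4 (V, 7820563 to 7821456) and lbp-9 (V, 2068448 to 2069142) stand alone, both on the plus strand. In the current annotation (WBcel235), the predicted secreted members LBP-3, LBP-2 and LBP-1 have the longest coding regions, of 165, 161 and 159 codons, against 135 to 152 for the others. lbp-7 and lbp-8 each have 2 exons and 137 codons. How reads matching more than 1 family member were assigned is unknown here, so values of close copies are uncertain to that extent.

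The family spanned a wide range of levels, and its order was nearly the same in every library. lbp-9 was the most abundant, at 1499 RPKM in hypoxia and 1619 in normoxia on labelled elt-2 RNAi, and at 1552 and 1559 on control RNAi. Between 99.4% and 99.6% of all loci were at or below it in each library. It also varied least, its highest library being 1.08 times its lowest. lbp-2 followed in every library (543 to 726 RPKM), then lbp-6 (260.1 to 524 RPKM). Then came lbp-1 (88.2 to 191 RPKM), lbp-3 (48.9 to 180 RPKM) and lbp-4 (134 to 166 RPKM). lbp-1 stood above lbp-3 in each of the 4 libraries, although their ranges overlap. lbp-4 stood above both in the normoxia libraries, between them in hypoxia on labelled elt-2 RNAi, and below both in hypoxia on control RNAi. lbp-5 was next in each library (35.2 to 63.1 RPKM), then lbp-7 (2.98 to 23.7 RPKM), and lbp-8 was last in all 4 (0.129 to 2.49 RPKM). RPKM is scaled to transcript length, so these levels can be set side by side, but only roughly. The unknown assignment of reads shared by close copies applies here too.

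**Figure D1:**
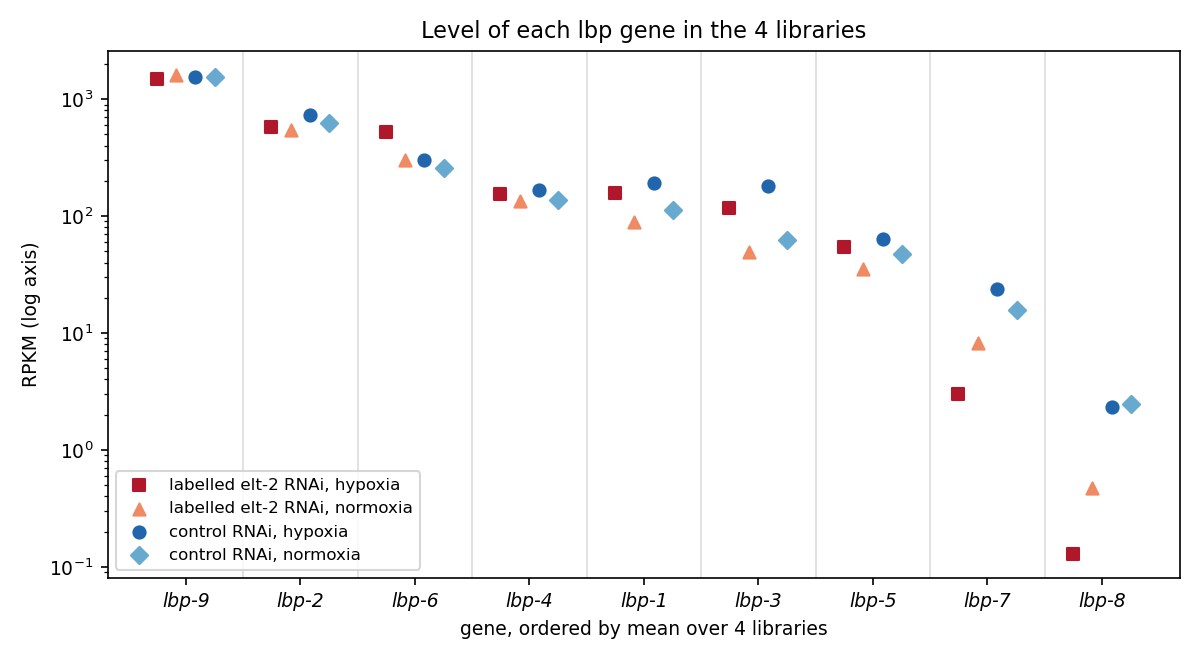
RPKM (log axis) of each lbp gene in the 4 libraries, 1 point per library, with genes ordered by their mean. lbp-9 lies between 1499 and 1619 RPKM in all 4 libraries, whereas lbp-7 and lbp-8 lie at 2.98 and 0.129 RPKM in hypoxia in the library labelled elt-2 RNAi.

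Summed over the 9 genes, the family was at 3091 RPKM in hypoxia and 2776 in normoxia on labelled elt-2 RNAi, and at 3206 and 2826 RPKM on control RNAi. As a share of all RPKM these sums were 0.285%, 0.289%, 0.284% and 0.292% in that order. The family's share of the transcript pool thus moved little, while its make-up did. lbp-9 held 48.5% of the family in hypoxia and 58.3% in normoxia on labelled elt-2 RNAi, and 48.4% and 55.2% on control RNAi. Without lbp-9, the remaining 8 genes summed to 1592 RPKM in hypoxia and 1157 in normoxia on labelled elt-2 RNAi, and to 1654 and 1267 RPKM on control RNAi.

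Hypoxia went with higher levels of the predicted secreted genes lbp-3 and lbp-1 and of lbp-5 on both foods. Averaged over the foods, limma's additive fit over all 10655 genes and 4 libraries called these 3 genes higher in hypoxia at an adjusted p of at most 0.05 and no member lower. The same fit called 17.2% of all compared genes higher and 15.7% lower, 32.9% in all. A call in either direction in 3 of 9 members is close to that share. At an unadjusted p under 0.05, 5 members passed, as did 50.2% of compared genes. The fit has 1 residual degree of freedom, the interaction of oxygen and food. The labels name no separate cultures, so a p-value here covers the spread among these 4 libraries alone, which may be technical. limma also draws each gene's variance towards a trend fitted over all compared genes. An SE or p-value of a gene therefore does not rest on that gene's own 4 values alone.

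lbp-3, the carrier tied to signalling from intestine to neurons, had the highest of the 9 average hypoxia effects in limma on the log2(RPKM + 1) scale. It was at 118 RPKM in hypoxia and 48.9 in normoxia on labelled elt-2 RNAi, and at 180 and 62.4 RPKM on control RNAi. Both hypoxia libraries lay above both normoxia libraries, and lbp-3 was 2.41-fold higher in hypoxia on labelled elt-2 RNAi and 2.88-fold higher on control RNAi. Its average log2 ratio of (RPKM + 1) was 1.38 ± 0.09 (SE, 4 libraries; limma adjusted p = 0.0144). It was the only member at least 2-fold higher in hypoxia, on either food, on the log2(RPKM + 1) scale. That mark was passed by 9.87% of compared genes on labelled elt-2 RNAi, 9.48% on control RNAi and 5.86% on both.

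lbp-1, its neighbour, was at 159 RPKM in hypoxia and 88.2 in normoxia on labelled elt-2 RNAi, and at 191 and 113 RPKM on control RNAi. Hypoxia again lay above normoxia without overlap, by 1.80-fold and 1.69-fold in that order. limma put its average log2 ratio at 0.80 ± 0.07 (SE, 4 libraries; adjusted p = 0.0147). lbp-5, known for its part in fat storage, was at 53.9 RPKM in hypoxia and 35.2 in normoxia on labelled elt-2 RNAi, and at 63.1 and 47.5 RPKM on control RNAi. Its average log2 ratio was 0.50 ± 0.09 (SE, 4 libraries; limma adjusted p = 0.0326). The lbp-5 call was lost when a trend on transcript length was removed (0.24 ± 0.09, limma adjusted p = 0.117) and without limma's mean-variance trend (limma adjusted p = 0.0645).

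lbp-2, the next gene in the row after lbp-3 and lbp-1 and the most abundant of those 3, was not called. It was at 580.4 RPKM in hypoxia and 543 in normoxia on labelled elt-2 RNAi, and at 726 and 628 RPKM on control RNAi. The hypoxia and normoxia libraries overlapped, and the average log2 ratio was 0.15 ± 0.08 (SE, 4 libraries; limma adjusted p = 0.188). With the length trend removed this value was -0.015. The loci flanking the row were low, tba-9 at 0.203 to 0.682 RPKM and fbxb-71, an F-box gene, at 2.25 to 3.42 RPKM. Neighbouring loci were looked up after the values of the lbp genes were known.

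lbp-6, an abundant member, was at 524 RPKM in hypoxia and 299 in normoxia on labelled elt-2 RNAi, and at 302 and 260.1 RPKM on control RNAi. The library labelled elt-2 RNAi in hypoxia stood above the other 3. Its log2 hypoxia ratio was 0.81 on labelled elt-2 RNAi and 0.21 on control RNAi, with an average of 0.51 ± 0.17 (SE, 4 libraries; limma adjusted p = 0.0882), which missed the threshold. With the length trend removed, the ratio on control RNAi was -0.04. The lbp-6 locus overlaps mec-6 on the other strand by 44 bp, and it is unknown here whether strand was used in counting. mec-6 was at 0.996 to 1.74 RPKM.

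lbp-4 was at 153 RPKM in hypoxia and 134 in normoxia on labelled elt-2 RNAi, and at 166 and 138 RPKM on control RNAi. Both hypoxia libraries lay above both normoxia libraries, by a log2 average of 0.23 ± 0.06 that missed the threshold (SE, 4 libraries; limma adjusted p = 0.0659). With the length trend removed the lbp-4 average was 0.0062 ± 0.06 (limma adjusted p = 0.943), with a ratio of -0.02 on labelled elt-2 RNAi. lbp-9 had log2 hypoxia ratios of -0.11 on labelled elt-2 RNAi and -0.01 on control RNAi. Its average of -0.06 ± 0.09 was the closest to 0 in the family (SE, 4 libraries, limma adjusted p = 0.641). The hypoxia ratio was above 0 on both foods for 6 members, as for 42.4% of compared genes. With the length trend removed it was so for 3 members (lbp-1, lbp-3 and lbp-5) and 40.9% of genes. Both hypoxia libraries lay above both normoxia libraries for 5 members (lbp-1, lbp-3, lbp-4, lbp-5 and lbp-6) and below both for lbp-9. Of all compared genes, 34.2% were above and 34.7% below in this way. The median log2 hypoxia ratio of the 9 members was 0.19 on labelled elt-2 RNAi and 0.27 on control RNAi, against -0.01 and 0.01 for all compared genes.

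**Figure D2:**
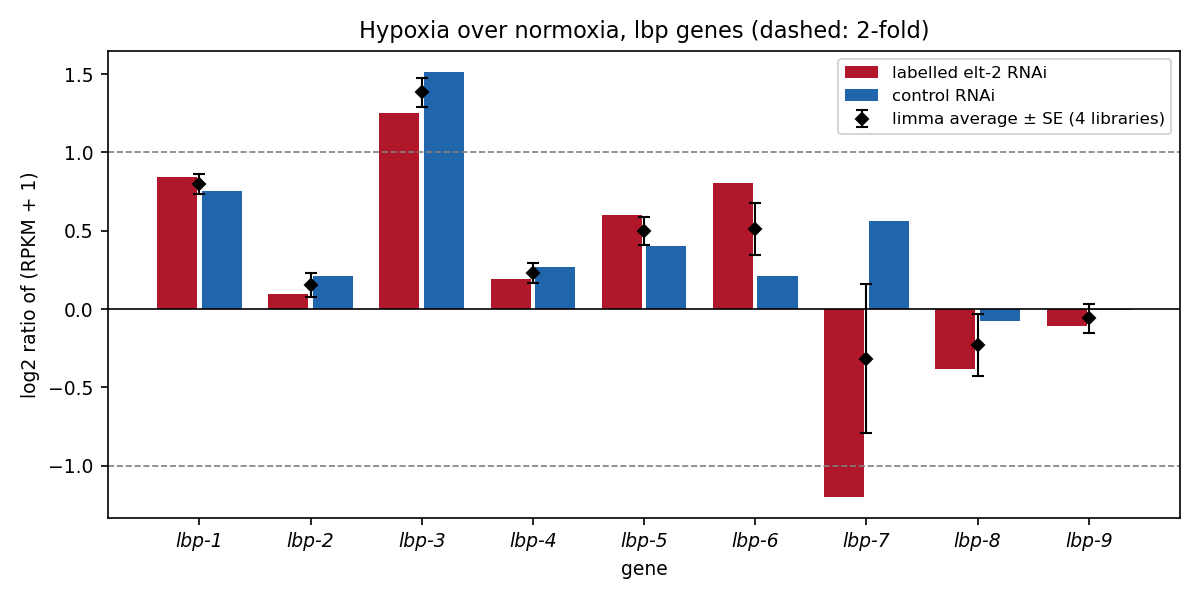
Log2 ratio of (RPKM + 1), hypoxia over normoxia, for each lbp gene on labelled elt-2 RNAi (left bars) and on control RNAi (right bars). Diamonds are limma's average with its SE. lbp-3 passes 2-fold (dashed) on both foods, and lbp-7 lies at -1.20 on labelled elt-2 RNAi and 0.56 on control RNAi.

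Tissue markers moved with hypoxia too, and their part in the lbp values was not tested. The shares of all compared genes called by limma were 17.2% higher and 15.7% lower. Of 10 compared body wall muscle markers, 7 were called higher by limma, with sums of 1817 RPKM in hypoxia and 808 in normoxia on labelled elt-2 RNAi and 1943 and 871 RPKM on control RNAi. Of 11 intestine markers, elt-2 among them, 5 were called higher. Of 9 compared embryo markers, 7 were called lower and 1 higher, with sums of 103.6 and 253 RPKM on labelled elt-2 RNAi and 162 and 401 RPKM on control RNAi, and med-1, an embryo marker, was listed at 0 throughout. Of 10 egg shell and oocyte markers, 8 were called lower. Of 9 compared neuron markers, 1 was called higher and 1 lower, and of 6 compared epidermis markers, 2 were called higher. Of 8 sperm markers only 2 were compared, and both were called lower.

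lbp-7 and lbp-8 had the lowest hypoxia ratios of the family on labelled elt-2 RNAi, on the log2(RPKM + 1) scale. lbp-7 was at 2.98 RPKM in hypoxia and 8.13 in normoxia on labelled elt-2 RNAi, and at 23.7 and 15.7 RPKM on control RNAi. Hypoxia thus stood 2.73-fold below normoxia on labelled elt-2 RNAi and 1.51-fold above it on control RNAi. The log2 hypoxia ratio of (RPKM + 1) was -1.20 on labelled elt-2 RNAi and 0.56 on control RNAi, a difference of -1.76. With a pseudocount of 5 RPKM the ratio on labelled elt-2 RNAi was -0.72. Among compared genes 3.15% had a difference at least 2-fold lower and 1.99% one at least 2-fold higher, and on this scale lbp-7 was the only member past either mark. On labelled elt-2 RNAi, a hypoxia ratio of (RPKM + 1) at least 2-fold down was found for 4.25% of compared genes, with lbp-7 alone among the members, and on control RNAi for 3.55%, with no member. Both statements depend on the pseudocount, since with 0.1 RPKM lbp-8 passed both marks too. Levels above normoxia on control RNAi and below it on labelled elt-2 RNAi were shared by 8.47% of compared genes, and by 0.46% where the lower ratio was at least 2-fold. Both rules have the shape of the lbp-7 values, so that lbp-7 meets them is no test. With a pseudocount of 5 RPKM it misses the 2-fold rule. With 1 library per group the difference between foods has no test, and limma counts it as error. The average of -0.32 ± 0.48 for lbp-7 thus describes neither food (SE, 4 libraries, limma adjusted p = 0.619).

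lbp-8, the carrier from lysosome to nucleus, was at 0.129 RPKM in hypoxia and 0.473 in normoxia on labelled elt-2 RNAi, and at 2.32 and 2.49 RPKM on control RNAi. Both libraries labelled elt-2 RNAi lay below both control libraries, and by RPKM hypoxia stood 3.67-fold below normoxia on labelled elt-2 RNAi. Its log2 hypoxia ratio was -0.38 on labelled elt-2 RNAi and -0.07 on control RNAi, with an average of -0.23 ± 0.20 (SE, 4 libraries; limma adjusted p = 0.393). These levels are low. Among 852 loci with a transcript length within 10% of that of lbp-8, 25.9% were listed at 0 in hypoxia on labelled elt-2 RNAi, and 8.56% of the values above 0 lay below that of lbp-8. On control RNAi in normoxia, 37.1% of the values above 0 lay below it. The pseudocount sets much of its log2 ratios: with 0.1 RPKM in place of 1, the hypoxia ratio on labelled elt-2 RNAi was -1.32, and the difference between foods was -1.22 against -0.31.

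The RNAi food went with lower levels of most members. Their log2 ratio, labelled elt-2 RNAi to control, was below 0 at both oxygen levels for 7 genes, as for 26.4% of compared genes. For 5 of them (lbp-1 to lbp-5) the hypoxia ratio was also above 0 on both foods, as for 14.4% of compared genes. The count of 5 was 3 (lbp-1, lbp-3 and lbp-5) with the length trend removed, where it held for 14.6% of genes. Centred on the median gene, 6 members, without lbp-4, and 23.8% of genes had RNAi ratios below 0 at both oxygen levels. With the hypoxia condition added, 4 members (lbp-1, lbp-2, lbp-3 and lbp-5) and 13.2% of genes remained. The RNAi ratios share libraries with the hypoxia ratios. The median over the members was -0.26 in hypoxia and -0.34 in normoxia, against 0.05 and 0.04 over all compared genes. limma called none of the 9 members for the average RNAi effect at an adjusted p of at most 0.05, where 0.131% of compared genes were called higher and 0.976% lower, 1.11% in all. At an unadjusted p under 0.05, 7 members passed, as did 16.3% of compared genes. These were not the same 7 as above: lbp-6, which was higher, was among them and lbp-4 was not. Without limma's mean-variance trend, 4 members and 1397 of 10655 genes passed. A missed threshold in either fit does not show that levels were alike.

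lbp-7 and lbp-8 had the lowest ratios. lbp-7 was 7.96-fold lower with labelled elt-2 RNAi in hypoxia and 1.93-fold lower in normoxia, with log2 ratios of (RPKM + 1) of -2.63 and -0.87. Its average was -1.75 ± 0.48 (SE, 4 libraries; limma adjusted p = 0.261). lbp-8 was 18.0-fold lower in hypoxia and 5.26-fold lower in normoxia by RPKM, with log2 ratios of (RPKM + 1) of -1.55 and -1.24 and an average of -1.40 ± 0.20 (SE, 4 libraries; limma adjusted p = 0.107). With a pseudocount of 0.1 RPKM the lbp-8 ratios were -3.40 in hypoxia and -2.18 in normoxia, and with 5 RPKM they were -0.51 and -0.45. On the log2(RPKM + 1) scale, lbp-8 was at least 2-fold lower at both oxygen levels and lbp-7 in hypoxia only. That mark was passed by 5.08% of compared genes in hypoxia, 3.66% in normoxia and 2.68% at both. No member was at least 2-fold higher, as 1.94% of compared genes were in hypoxia and 1.23% in normoxia. T22G5.3, next to lbp-7, had higher values with labelled elt-2 RNAi, at 16.7 RPKM in hypoxia and 24.7 in normoxia on labelled elt-2 RNAi against 9.67 and 16.4 RPKM on control RNAi. sptl-3, 2006 bp to the right of lbp-8, was at 45.1 and 32.3 RPKM on labelled elt-2 RNAi and 35.9 and 35.8 RPKM on control RNAi. The left neighbours averaged too little to be compared. T22G5.1, left of lbp-7, was at 0 to 0.0535 RPKM, and spp-12, 404 bp left of lbp-8, at 0 to 0.905 RPKM.

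Among the predicted secreted genes, lbp-3 had log2 RNAi ratios of -0.60 in hypoxia and -0.34 in normoxia, lbp-1 of -0.26 and -0.35, and lbp-2 of -0.32 and -0.21. Of these 3, lbp-2 alone had both libraries labelled elt-2 RNAi below both controls. In the whole family this held for lbp-2, lbp-7 and lbp-8, against 9.87% of compared genes. No member had both labelled elt-2 RNAi libraries above both controls, as 14.3% of compared genes did. lbp-5 had log2 RNAi ratios of -0.22 in hypoxia and -0.42 in normoxia, and lbp-4 of -0.11 and -0.03. lbp-6 was the only member above 0 at both oxygen levels, at 0.79 in hypoxia and 0.20 in normoxia, with an average of 0.50 ± 0.17 (SE, 4 libraries; limma adjusted p = 0.303). Centred on the median gene, the lbp-4 ratio in normoxia was 0.00.

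**Figure D3:**
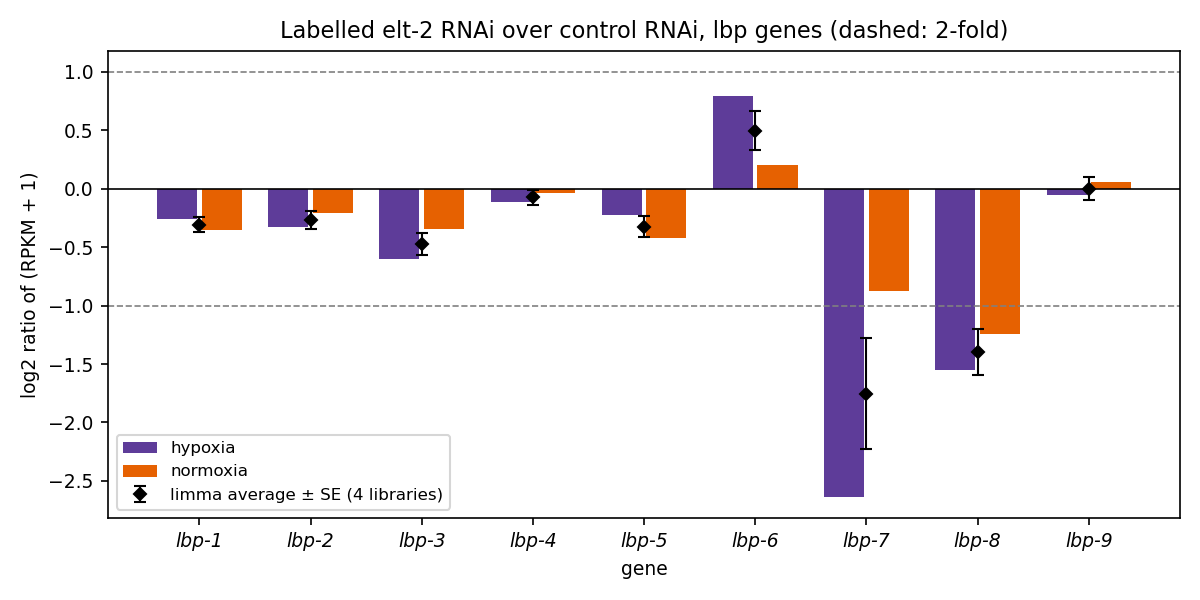
Log2 ratio of (RPKM + 1), labelled elt-2 RNAi to control, for each lbp gene in hypoxia (left bars) and normoxia (right bars), with limma's average and its SE as diamonds. lbp-7 and lbp-8 lie lowest, at -2.63 and -1.55 in hypoxia, and lbp-6 lies highest, at 0.79.

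Intestine markers also differed by food. Of the 11, limma called 2 lower for RNAi (mtl-1 and cpr-6) and none higher, against 0.976% and 0.131% of compared genes. At each oxygen level 4 were at least 2-fold lower and 1 at least 2-fold higher, but not the same genes. asp-1, mtl-1 and cpr-6 were lower at both levels, vha-6 in hypoxia only and ges-1 in normoxia only. The higher marker was ifb-2 in hypoxia and elt-2, the targeted gene itself, in normoxia. The summed level of the 11 markers was 1436 RPKM in hypoxia and 779 in normoxia on labelled elt-2 RNAi, and 3781 and 2215 RPKM on control RNAi. Abundant genes carried these sums. asp-1 was at 475 and 360.5 RPKM on labelled elt-2 RNAi and 1767 and 760 on control RNAi, and cpr-6 at 58.8 and 108 against 928 and 906. In hypoxia, ifb-2 (231 against 101 RPKM) and act-5 (386 against 297) went the other way. The median log2 RNAi ratio of the 11 was -0.30 in hypoxia and -0.55 in normoxia. None of the 11 was listed at 0 in any library. The part of these markers in the lbp-7 and lbp-8 values was not tested.

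In the authors' deposited tables, which test 1 library against 1 library, none of the 9 genes was called significant in any of the 6 tables. Of 54 such tests on members, 7 had an unadjusted p under 0.05, as did 6.94% of all tests with a result in the authors' deposited tables. The 6 tables share libraries, so these tests are not independent. The lowest FDR-adjusted p in the authors' deposited tables was 0.0724, for lbp-3 in the pair that differs in both food and oxygen (labelled elt-2 RNAi normoxia against control RNAi hypoxia). The share of tested loci called in the authors' deposited tables was 0.712% for hypoxia on labelled elt-2 RNAi, 0.467% for hypoxia on control RNAi, 0.921% for RNAi in hypoxia and 0.531% for RNAi in normoxia. In the pairs that differ in both factors, the authors' deposited tables called 1.56% (labelled elt-2 RNAi normoxia against control hypoxia) and 1.23% (labelled elt-2 RNAi hypoxia against control normoxia). For lbp-7 in hypoxia, labelled elt-2 RNAi against control, the authors' deposited table gave an FDR-adjusted p of 0.250.

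Position and pattern did not always go together. Likeness was measured as the distance between genes over the 4 libraries, on log2(RPKM + 1) centred on each gene's own mean, where 0 means the same pattern. lbp-7 and lbp-8 were each other's nearest family member, at a distance of 0.812. lbp-2 was nearest to lbp-4 on another chromosome (0.209), and lbp-1 to lbp-5 (0.302), closer than lbp-1 to its neighbours lbp-3 (0.634) and lbp-2 (0.653). lbp-5 and lbp-6, close on chromosome I with the locus ant-1.2 between them, were at a distance of 0.845.

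Outside the family, the 3 nearest genes were sought for the 3 members with the widest range over the libraries, among 7999 genes averaging 5 RPKM or more. For lbp-7 they were gba-1, a glucosylceramidase gene (distance 0.145), F52E1.14 (0.261) and the lysozyme gene lys-7 (0.287). gba-1 was at 2.34 RPKM in hypoxia and 5.85 in normoxia on labelled elt-2 RNAi, and at 17.6 and 12.8 RPKM on control RNAi, the same order of libraries as for lbp-7. For lbp-3 they were the glucuronosyltransferase genes ugt-49 (0.0901) and ugt-47 (0.108) and F32B5.1 (0.103). For lbp-8 they were C08F11.13 (0.0842), the acyl-CoA synthetase gene acs-5, deposited as acs-14 (0.111), and spds-1 (0.139). The lbp-8 distances rest on the pseudocount of 1 RPKM, since lbp-8 lay between 0.129 and 2.49 RPKM. By RPKM, lbp-8 was 18.0-fold lower with labelled elt-2 RNAi in hypoxia and 5.26-fold lower in normoxia. C08F11.13 was 3.63-fold and 2.49-fold lower. Over 4 libraries and so many genes, close patterns are easy to find, and these are descriptions only.

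**Figure D4:**
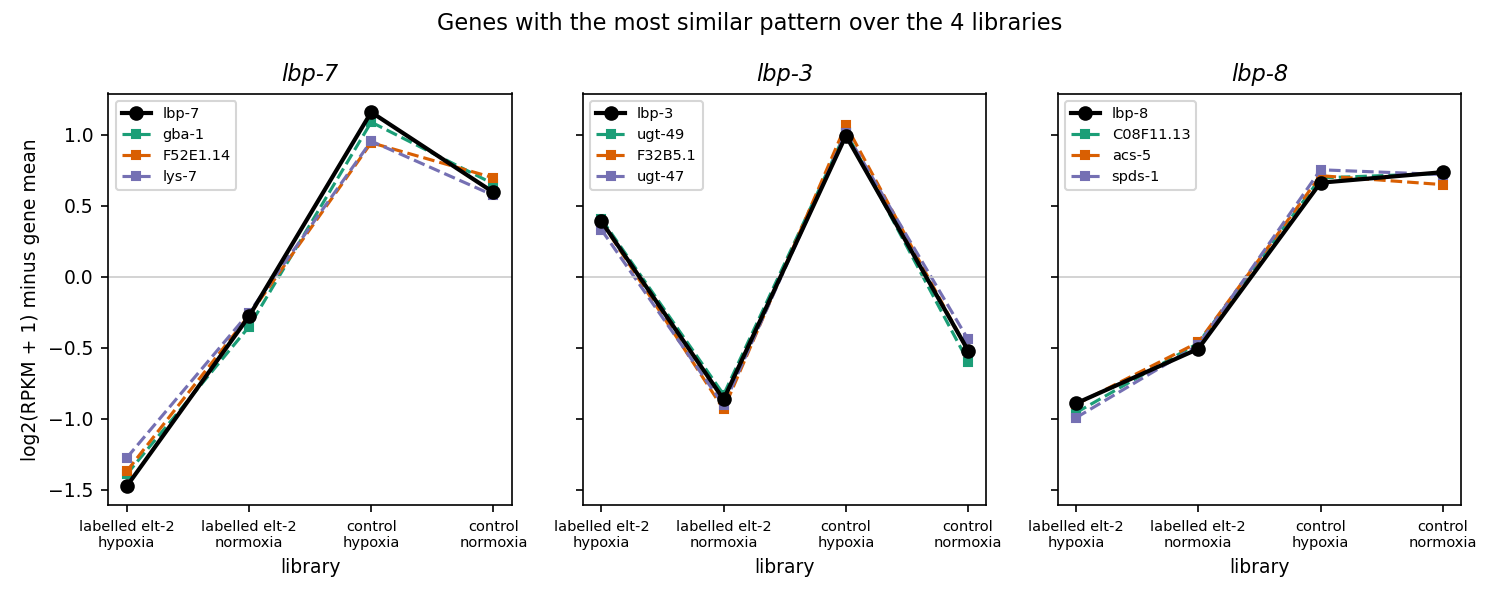
Log2(RPKM + 1) minus the gene's own mean in the 4 libraries for lbp-7, lbp-3 and lbp-8 (black) and the 3 genes nearest to each in pattern (dashed). lbp-7 and lbp-8 are lowest in hypoxia on labelled elt-2 RNAi, and lbp-3 is high in both hypoxia libraries.

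The genes that feed lipid to these carriers or act on it were taken from 6 lists. Over all compared genes, limma called 17.2% higher and 15.7% lower in hypoxia, and 1.11% in all for RNAi. Of 8 lysosomal lipases, which free fatty acids from stored fat in the lysosome, 5 were compared. limma called 1 of them higher in hypoxia, lipl-1, at 15.2 RPKM in hypoxia and 8.19 in normoxia on labelled elt-2 RNAi and at 15.3 and 8.78 RPKM on control RNAi (limma adjusted p = 0.0287). None was called for RNAi, though 2 of the 5 were at least 2-fold lower with labelled elt-2 RNAi at each oxygen level and 1, lipl-4, was at least 2-fold higher in normoxia. lipl-5 was at 77.4 RPKM in hypoxia and 138 in normoxia on labelled elt-2 RNAi, and at 431 and 350.5 RPKM on control RNAi. lipl-2 was at 0.574 and 3.06 RPKM on labelled elt-2 RNAi, and at 12.3 and 15.6 RPKM on control RNAi. Both lipases were lowest in the library in which lbp-7 and lbp-8 were lowest. lipl-4, the lipase known to act with LBP-8, was near the limit of the comparison, at 1.53 and 1.67 RPKM on labelled elt-2 RNAi and 1.21 and 0.230 RPKM on control RNAi.

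Of 8 fatty-acid-responsive regulators, 2 were called higher and 1 lower in hypoxia, and none for RNAi. nhr-80, a partner of LBP-8, was at 4.12 RPKM in hypoxia and 1.31 in normoxia on labelled elt-2 RNAi, and at 10.6 and 2.94 RPKM on control RNAi (limma adjusted p = 0.0249 for hypoxia). It was the only one at least 2-fold higher in hypoxia on either food. nhr-49, the receptor linked to LBP-3, LBP-5 and LBP-8, was at 72.5 and 58.1 RPKM on labelled elt-2 RNAi, and at 69.1 and 56.1 RPKM on control RNAi (limma adjusted p = 0.0449 for hypoxia). nhr-66 was the gene called lower, with log2 hypoxia ratios of -0.32 on labelled elt-2 RNAi and -0.37 on control RNAi.

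Other lipid carriers went both ways. Of 8 fatty acid and retinol binding far genes, which encode secreted nematode proteins, 7 were compared, 3 were called higher in hypoxia (far-2, far-6 and far-7) and 1 lower (far-3). far-2, at 4430 RPKM in hypoxia and 2929 in normoxia on labelled elt-2 RNAi and 4594 and 3152 RPKM on control RNAi, stood above lbp-9 in every library. far-3 was at 3.62 and 107 RPKM on labelled elt-2 RNAi, and at 5.08 and 40.1 RPKM on control RNAi. Of 7 acyl-CoA binding protein genes, which hold activated fatty acids, 5 were compared and 2 called higher in hypoxia, acbp-1 and maa-1. acbp-1 was at 458 and 335 RPKM on labelled elt-2 RNAi, and at 731 and 419 RPKM on control RNAi. No far or acyl-CoA binding gene was called for RNAi.

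Among 14 genes of fatty acid transfer and oxidation, 12 were compared, with 3 called higher and 5 lower in hypoxia. The higher ones, dhs-28, maoc-1 and daf-22, encode enzymes of peroxisomal beta-oxidation. dhs-28 was at 33.5 RPKM in hypoxia and 20.3 in normoxia on labelled elt-2 RNAi, and at 57.2 and 29.4 RPKM on control RNAi. The lower ones were acdh-1, kat-1, acs-4, acs-22 and cpt-1, the last encoding the carnitine transferase of mitochondrial import. acs-22 was the 1 gene of all 6 lists called lower for RNAi, at 7.01 and 10.7 RPKM on labelled elt-2 RNAi and 20.2 and 29.8 RPKM on control RNAi (limma adjusted p = 0.0406). acs-2, a target of NHR-49, was at 1.84 and 0.864 RPKM on labelled elt-2 RNAi, and at 11.6 and 1.21 RPKM on control RNAi, high in 1 library only. Of 6 fat storage genes, 1 was called in hypoxia, the lipase gene atgl-1, which was lower, with log2 hypoxia ratios of -0.28 on labelled elt-2 RNAi and -0.38 on control RNAi.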

How the data were processed

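RNA of whole adult animals was sequenced from 4 libraries on 1 lane with paired reads of 100 bp, per the labels' protocols, and sample titles gave the groups. The authors deposited RPKM values, per the file headers, in 6 pairwise tables, between which the RPKM of a library never differed (0 of 158816 values). The authors' log2 fold change, a test score (the test statistic), a p-value and its FDR adjustment stand beside them, per the file headers. TopHat2 2.0.8b, Cufflinks 2.1.1 and build ce10 are listed, without roles, per the submitters' processing notes. The annotation, read filters and use of strand were not given in the sources used here.

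Compared were loci that averaged 1 RPKM or more, carried a single gene name and were never marked FAIL or HIDATA (8 loci were). Ratios are log2 of (RPKM + 1) over (RPKM + 1), which understates changes of low genes. With 1 library per group, pairwise ratios carry no test, and those past 2-fold were counted. Average effects of oxygen and RNAi were fitted with limma 3.58.1 in R 4.3.3 (additive terms, mean-variance trend, Benjamini-Hochberg adjustment at 0.05). The fit was also run on simulated data, with oxygen effects larger than the average of any lbp gene and no interaction effect. That run therefore does not bear on the lbp calls. Named were the 9 members, elt-2, at most 3 genes per list and comparison with the largest ratios, and the nearest genes in pattern; list genes called by limma, genes tied to a member and neighbouring loci were named after their values were seen. The members and lists were chosen with earlier results of these data known. Current symbols (by accession, then name), exons and lengths come from WBcel235 tables; 8 of the 9 members matched by accession and lbp-3 by name. Alternatives were pseudocounts of 0.1 and 5, no filter or a mean of at least 5 RPKM, median centring, a transcript length trend removed by loess, loci naming several genes kept, 4-fold, and limma without the trend.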

Additional observations from a re-analysis of the deposited data

Results flagged for a closer look

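lbp-7 lay on opposite sides of normoxia in hypoxia on the 2 foods, with log2 ratios of -1.20 on labelled elt-2 RNAi and 0.56 on control RNAi. lbp-9 had RNAi ratios of opposite sign, -0.05 in hypoxia and 0.05 in normoxia, both close to 0. Neither difference was tested, since each group has 1 library.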

How the results depend on the processing

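No paired analysis was possible because the labels give no replicate numbers that groups share; the additive fit already compares oxygen levels within each food. Of the lbp hypoxia calls in limma, lbp-1 and lbp-3 passed under all 8 alternatives, and lbp-5 missed in 2 (above). lbp-2 reversed to -0.015 for hypoxia with the length trend removed. No lbp gene was called for RNAi in any of them. Genes called for hypoxia were 3510, against 2215 with no filter and 2182 without the mean-variance trend; for RNAi 118, against 48, 0 (limma; 1397 genes at an unadjusted p under 0.05) and, at pseudocount 5, 51. Genes past 2-fold numbered 1388 (hypoxia, control RNAi), 1505 (hypoxia, labelled elt-2 RNAi), 521 (RNAi, normoxia), 748 (RNAi, hypoxia) and 548 (difference). Pseudocount 5 gave 634, 719, 249, 415 and 236, and 4-fold 206, 274, 144, 256 and 79. A mean of at least 5 RPKM gave 917 (hypoxia, control RNAi), 340 (RNAi, normoxia), 479 (RNAi, hypoxia) and 309 (difference), and pseudocount 0.1 gave 803 (RNAi, normoxia) and 865 (difference). Members past 2-fold numbered 1, 2, 1, 2 and 1 in the same order. At 4-fold they were 0, 0, 0, 1 and 0. At pseudocount 5 they were 1 for hypoxia on labelled elt-2 RNAi, 0 for RNAi in normoxia and 1 for RNAi in hypoxia. At a mean of at least 5 RPKM, which removes lbp-8, they were 0 for RNAi in normoxia and 1 in hypoxia. At pseudocount 0.1 the difference had 2. The cause of the other changes was not tested.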
